A study of Mus musculus with 57 samples.

Results

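The 10 genes described here, Nanog, Klf2, Klf4, Klf5, Esrrb, Zfp42, Tfcp2l1, Prdm14, Tbx3 and Dppa3, code for factors of naive pluripotency. They were taken by name from the 55450 genes counted in bulk RNASeq of mouse embryonic stem cells (ESCs) that were leaving pluripotency in retinoic acid (RA). Earlier results of these data were known when they were chosen. All 55450 gene identifiers matched GENCODE M21 (GRCm38), and each of the 10 names matched a single gene.

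Naive pluripotency is the ground state of mouse ESCs and of the preimplantation epiblast, and LIF, acting through STAT3, holds it in culture. The factors bind each other's genes and form a network, so that their transcripts are usually present together and are lost together when cells differentiate. Klf4, Klf5 and Tbx3 are also transcribed outside pluripotent cells, for instance in epithelia and in extraembryonic lineages.

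All 57 libraries came from the Sox1-EGFP/FoxA2mCherry ESC line, a knock-in reporter line in which EGFP marks transcription of Sox1, a neuroectoderm gene, and mCherry is fused to FOXA2, an endoderm factor. D0 libraries were Sox1-FOXA2- cells sorted from SerumLIF culture. Cells were then kept for 2, 4 or 6 days (D2, D4, D6) in N2B27 medium with 1 uM RA and sorted into 4 gates, double-negative (Sox1-FOXA2-), single-positive (Sox1+FOXA2- or Sox1-FOXA2+) and double-positive (Sox1+FOXA2+), which gave 39 sorted libraries together with D0. For the 18 progeny libraries, 3 of these populations (all but Sox1-FOXA2-) were sorted at D2, replated in RA and harvested without a further sort at D4 or D6 (Progeny D4, Progeny D6). The basal medium of the progeny was Serum without LIF. Replating, the change of basal medium and the missing second sort cannot be told apart in progeny. From D0 to the sorted cells, RA was added, LIF was withdrawn and the basal medium was changed together, and these cannot be told apart either. Each of the 19 conditions has 3 biological replicates, and because all come from a single clonal reporter line, p-values measure the spread between cultures of that line.

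Libraries held 20391512 to 61358355 counts in sorted cells and 10170632 to 81845651 in progeny. Foxa2 transcripts followed the gate in the Sox1-FOXA2+ libraries of D2 to D6, with 1478 to 3241 normalized counts against at most 324 in the sorted FOXA2- libraries. The Sox1+FOXA2+ libraries had 1067 to 1956 at D2, 214 to 1091 at D4 and 0, 76.6 and 728 at D6, so that those of D4 and D6 overlapped the FOXA2- range. Sox1 was listed at 0 in all 57 libraries, so that the Sox1 gates could not be checked on their own transcript. Of the 3 D0 libraries, the second stood apart. It had the lowest level of all 10 members and the highest of 8 of 8 genes of the formative and primed state, the stage that follows the naive one: its Fgf5 count, a primed epiblast ligand, was 4201 normalized counts against 22.4 and 0 in the other D0 libraries. The comparisons with D0 were repeated without it.

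**Figure D1:**
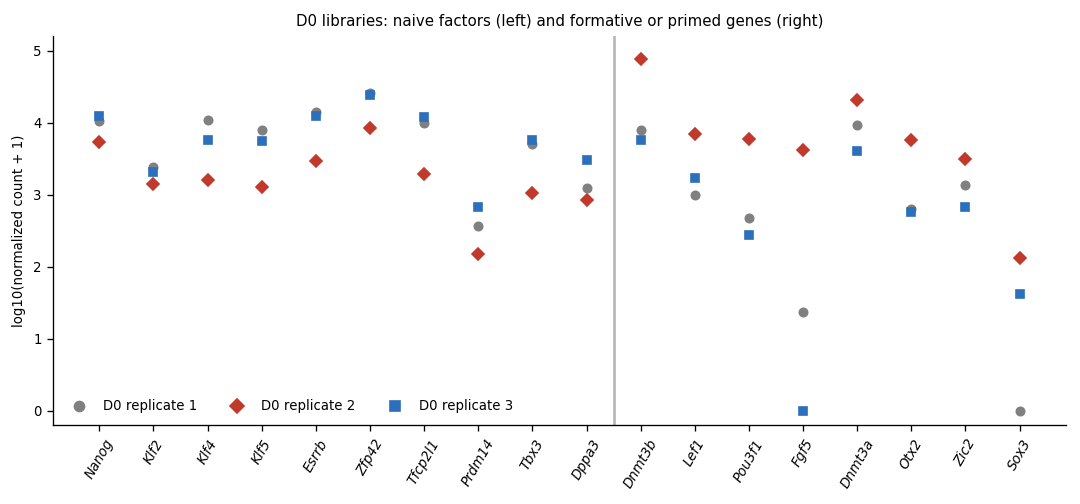
Normalized counts, as log10 of the count plus 1, of the 10 members (left) and of 8 formative or primed genes (right) in the 3 D0 libraries, each library with its own symbol. The second library lies below the other D0 libraries for 10 of 10 members and above them for 8 of 8 formative and primed genes.

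Levels of different genes were compared per kilobase of exon, since longer transcripts give more fragments. At D0 the zinc finger gene Zfp42 (Rex1), a standard marker of the naive state, had the highest level, with 10399 ± 5129 normalized counts per kilobase (SD, n = 3). It was followed by the homeodomain factor Nanog with 4236 ± 1632, Klf4 with 2007 ± 1537 and Dppa3 with 1938 ± 1325. Esrrb had 1629 ± 1002, Klf2 1075 ± 280, Klf5 944 ± 641, Tfcp2l1 853 ± 574 and Tbx3 600 ± 387. Prdm14 was lowest at 156 ± 104. Every pair of neighbours in this order overlapped within 1 SD, so that only distant ranks, such as Zfp42 and Prdm14, were separate.

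Promoter sequences, the 250 bases before the transcription start, were at hand for 6 of the 10 members in RefSeq (GRCm38.p6). They are shown for 3 members that the results below set apart from each other: Nanog and Zfp42, called lower than D0 in all 6 progeny populations, and Klf4, called lower in 3 of the 6. The capitals mark, on either strand, the joint OCT4-SOX2 motif in Nanog (TTTGCAT, then any base, then ACAAT), the OCT4 element TTTGCAT in Zfp42 and the GC box GGGCGG in Klf4.
Nanog (chr6:122707239-122707488, plus strand): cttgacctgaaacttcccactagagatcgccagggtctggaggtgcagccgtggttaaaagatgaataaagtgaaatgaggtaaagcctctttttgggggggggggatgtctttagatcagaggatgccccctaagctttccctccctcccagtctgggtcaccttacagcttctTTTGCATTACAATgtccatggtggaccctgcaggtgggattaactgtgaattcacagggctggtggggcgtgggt
Zfp42 (chr8:43307010-43307259, minus strand): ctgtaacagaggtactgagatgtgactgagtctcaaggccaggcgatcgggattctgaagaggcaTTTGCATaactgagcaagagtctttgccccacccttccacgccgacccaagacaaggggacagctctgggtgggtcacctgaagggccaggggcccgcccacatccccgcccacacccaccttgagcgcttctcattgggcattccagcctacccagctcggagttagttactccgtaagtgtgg
Klf4 (chr4:55532476-55532725, minus strand): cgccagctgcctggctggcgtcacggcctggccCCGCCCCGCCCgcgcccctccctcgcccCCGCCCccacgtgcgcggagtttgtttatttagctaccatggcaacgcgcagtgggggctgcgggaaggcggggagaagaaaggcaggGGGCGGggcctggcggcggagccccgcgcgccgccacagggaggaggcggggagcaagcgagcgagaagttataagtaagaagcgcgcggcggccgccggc
Of 32851 promoters of this length, 0.02435% held the joint motif, 4.125% the OCT4 element, which lies inside the joint motif, and 32.74% the GC box. Klf4 held the GC box 4 times, Zfp42 2 times and Klf2 2 times. Promoters were also at hand for Klf2, Esrrb and Tfcp2l1, which were called lower in all 6 progeny populations too. Their windows held 0 matches of the OCT4 element and 0 of the joint motif, so that these motifs did not go with the calls. These matches describe letters in the window and say nothing of binding.

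In all 4 gates most members had lower means than at D0. As a description over means, at D2 the median member was at 45.4% of its D0 mean in Sox1-FOXA2- cells, 18.8% for Sox1+FOXA2-, 8.48% for Sox1+FOXA2+ and 4.45% for Sox1-FOXA2+, while the median of all genes was at 93.7%, 95.6%, 85.2% and 88.1%. At D4 the medians of the members were 38.0%, 7.95%, 19.2% and 7.21%, and at D6 31.8%, 19.1%, 16.8% and 7.89%, in the same order of gates. Those of all genes were 97.1%, 109%, 135% and 101% at D4 and 108%, 127%, 141% and 97.9% at D6. Sox1-FOXA2- cells had the highest mean of 10 of 10 members at D2, 7 at D4 and 6 at D6, and Sox1-FOXA2+ cells the lowest of 7, 6 and 7. In bulk libraries, fewer cells that transcribe a gene and less transcript in each cell cannot be told apart. Without the second D0 library the medians of the members were lower. They were 35.7%, 14.7%, 6.46% and 3.45% at D2, 27.8%, 5.93%, 14.8% and 5.89% at D4 and 26.0%, 14.7%, 12.4% and 5.97% at D6, in the same order of gates.

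**Figure D2:**
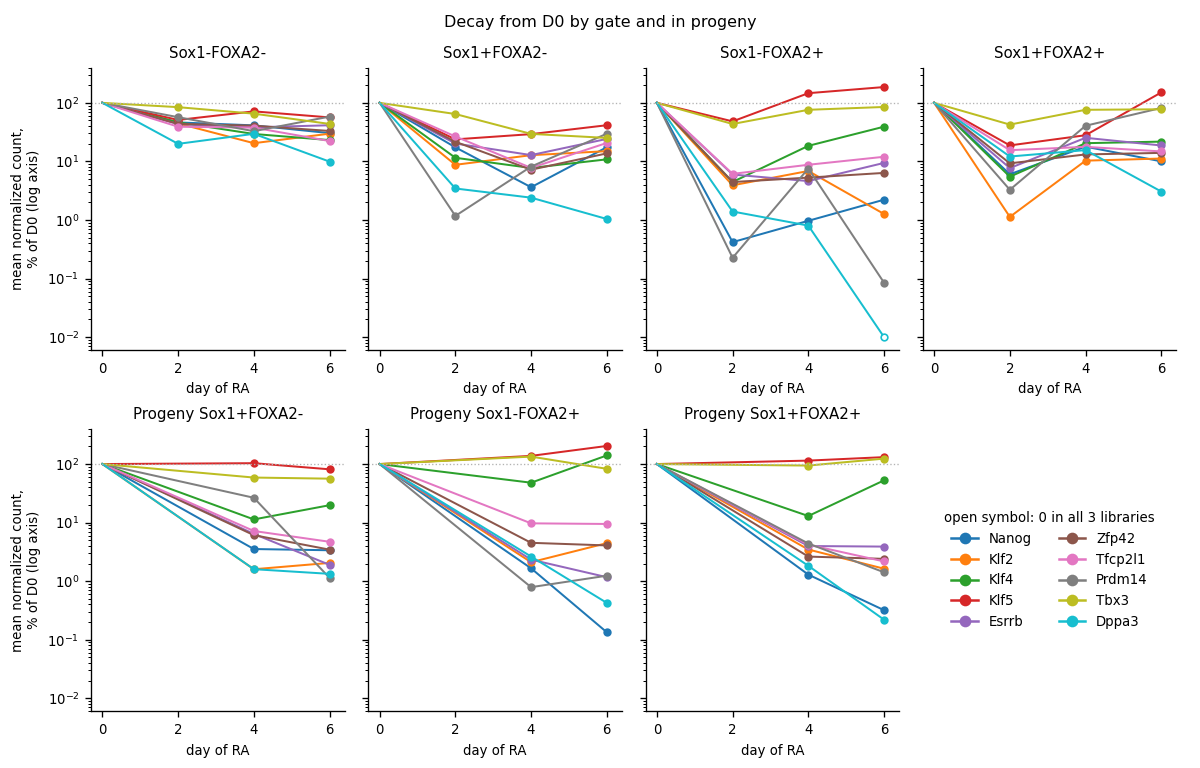
Mean normalized count of each member as a percentage of its D0 mean (log axis) against the day of RA, 1 line per member and 1 panel per gate, sorted cells above and progeny below. In D2 Sox1-FOXA2+ cells Nanog is at 0.418% and Klf5 at 48.3%, and in progeny Klf5 and Tbx3 lie between 56.3% and 204%. The open symbol at the lower edge stands for 0 counts of Dppa3 in all 3 libraries.

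The test across all genes (edgeR's quasi-likelihood test over the 39 sorted libraries, two-sided, Benjamini-Hochberg adjusted over 28237 genes) called 9 of 40 combinations of a member and a gate lower than D0 at D2, 10 of 40 at D4 and 10 of 40 at D6, and none higher. Over all genes and the 4 gates, 0.258%, 1.17% and 1.86% were called lower on the 3 days. By gate, Sox1-FOXA2+ cells had 5, 4 and 5 called members at D2, D4 and D6 (all genes 0.414%, 0.924% and 1.89%), Sox1+FOXA2+ cells 4, 3 and 2 (0.446%, 3.30% and 3.47%) and Sox1+FOXA2- cells 0, 3 and 3 (0.0956%, 0.436% and 1.75%). In Sox1+FOXA2- cells at D2, 8 members had an unadjusted p under 0.05 and DESeq2 called 6. In Sox1-FOXA2- cells, 0 members were called on each day (0.0744%, 0.0354% and 0.347% of all genes), with 1, 1 and 4 at an unadjusted p under 0.05 and 0, 0 and 1 called by DESeq2. Without the second D0 library the test called 11, 12 and 13 of 40, and no call was lost. The 7 calls gained were Klf5 in Sox1+FOXA2- cells on each day (log2 fold changes of -2.44, -2.26 and -1.96), Klf4 there at D4 and D6 (-4.09 and -3.90), Esrrb in D2 Sox1+FOXA2+ cells (-4.18) and Tfcp2l1 in D6 Sox1-FOXA2- cells (-2.67, edgeR adjusted p = 0.025). Sox1+FOXA2- cells then had 1, 5 and 5 called members and Sox1-FOXA2- cells 0, 0 and 1. Without the first D0 library it called 4, 8 and 7. By the libraries alone, all 3 lay below all 3 D0 libraries for 2, 5, 8 and 8 of 10 members at D2 in Sox1-FOXA2-, Sox1+FOXA2-, then Sox1-FOXA2+, then Sox1+FOXA2+ cells, where 7.95%, 6.92%, 8.91% and 8.36% of all genes did. At D4 these counts were 1, 8, 8 and 5 (all genes 6.23%, 7.09%, 9.17% and 7.92%) and at D6 3, 5, 7 and 4 (7.34%, 8.04%, 9.28% and 7.67%).

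Nanog, a homeodomain factor near the centre of the network, had its lowest sorted means in Sox1-FOXA2+ cells on each day. Its D0 libraries held 10484, 5448 and 12562 normalized counts. The 3 libraries of D2 Sox1-FOXA2+ cells held 0.903, 0.983 and 117, which is 0.418% of the D0 mean. All 3 lie below every D0 library. D4 Sox1-FOXA2+ libraries held 25.0, 150 and 101, and those of D6 55.0, 380 and 197. The fitted log2 fold changes against D0 were -7.99 (SE 1.45, adjusted p = 0.0011) at D2, -6.67 (SE 1.36, adjusted p = 0.0022) at D4 and -5.58 (SE 1.29, adjusted p = 0.0061) at D6 by edgeR's quasi-likelihood test. In Sox1-FOXA2- cells Nanog varied widely among replicates, with 1448, 7024 and 4727 at D2 and 2816, 4092.5 and 1763 at D6, and these libraries overlapped D0 at D2 but not at D6. Sox1+FOXA2- cells held 381, 251 and 400 at D4, all below D0, with a log2 fold change of -4.86 (SE 1.25, adjusted p = 0.030). That call was lost without the first D0 library (adjusted p = 0.052), without the third (0.058) or without any of the 3 D4 Sox1+FOXA2- libraries (0.086 to 0.11). The Nanog calls in Sox1-FOXA2+ cells were kept whichever library was left out.

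Zfp42 and Tfcp2l1 were called lower in 8 of the 12 sorted populations each, and Esrrb in 3. Zfp42 encodes a zinc finger protein, Tfcp2l1 a CP2 family factor downstream of STAT3 and Esrrb an orphan nuclear receptor. Zfp42 had 26002, 8468 and 24209 normalized counts at D0 and 1100, 1049 and 458 in D2 Sox1-FOXA2+ cells. At D4 these cells had 1087, 1062 and 953 and at D6 993, 880 and 1860. None of these libraries overlaps D0, and the means were 4.44%, 5.29% and 6.36% of the D0 mean on the 3 days. edgeR's quasi-likelihood test called Zfp42 in Sox1-FOXA2+ cells on each day, with log2 fold changes of -4.45 (SE 0.81), -4.25 (SE 0.80) and -4.11 (SE 0.79) and adjusted p of 0.0011, 0.00081 and 0.00076. It was also called in Sox1+FOXA2+ cells on each day (log2 fold changes of -3.42, -3.23 and -3.22) and in Sox1+FOXA2- cells at D4 (-3.86) and D6 (-3.16). Among these, the D2 call in Sox1+FOXA2+ cells was lost without replicate 1 or 3 of that group (adjusted p = 0.060 and 0.059), the D6 call there without replicate 1 (0.065), and the D6 call in Sox1+FOXA2- cells without replicate 1 or 2 (0.063 and 0.091).

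Tfcp2l1 held 10013, 1922 and 12210 normalized counts at D0. D2 Sox1-FOXA2+ libraries held 418, 501 and 560, all below D0, with a log2 fold change of -3.99 (SE 0.71, adjusted p = 0.00098, edgeR). It was called in Sox1-FOXA2+ and Sox1+FOXA2+ cells on each of the 3 days and in Sox1+FOXA2- cells at D4 and D6, from -3.99 to -2.54 on the log2 scale. The weakest of these, -2.54 in D6 Sox1+FOXA2- cells and -2.66 in D2 Sox1+FOXA2+ cells, were each lost without the first D0 library (adjusted p = 0.096 and 0.099) or the third (0.12 and 0.13), and without 2 libraries of their own group (0.12 to 0.13). The call in D4 Sox1+FOXA2+ cells was lost without replicate 3 of that group (0.060). Esrrb held 14274.5, 2947 and 12328 at D0. In Sox1-FOXA2+ cells it was called on each day, with 564, 452 and 747 normalized counts at D2 and log2 fold changes of -4.06, -4.48 and -3.66 on the 3 days (SE 1.09, 1.11 and 1.07; edgeR adjusted p = 0.045, 0.014 and 0.038). Without the second D0 library it was also called in D2 Sox1+FOXA2+ cells (adjusted p = 0.035). Its calls were fragile: leaving out single D2 or D6 libraries or the first or the third D0 library gave an adjusted p between 0.081 and 0.17, and leaving out any of the 3 D4 Sox1-FOXA2+ libraries gave 0.059 to 0.073. Whether Esrrb differed between Sox1-FOXA2+ and Sox1+FOXA2- cells was tested directly at D2, with a log2 difference of -1.75 (SE 0.81, adjusted p = 0.91), which does not pass.

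**Figure D3:**
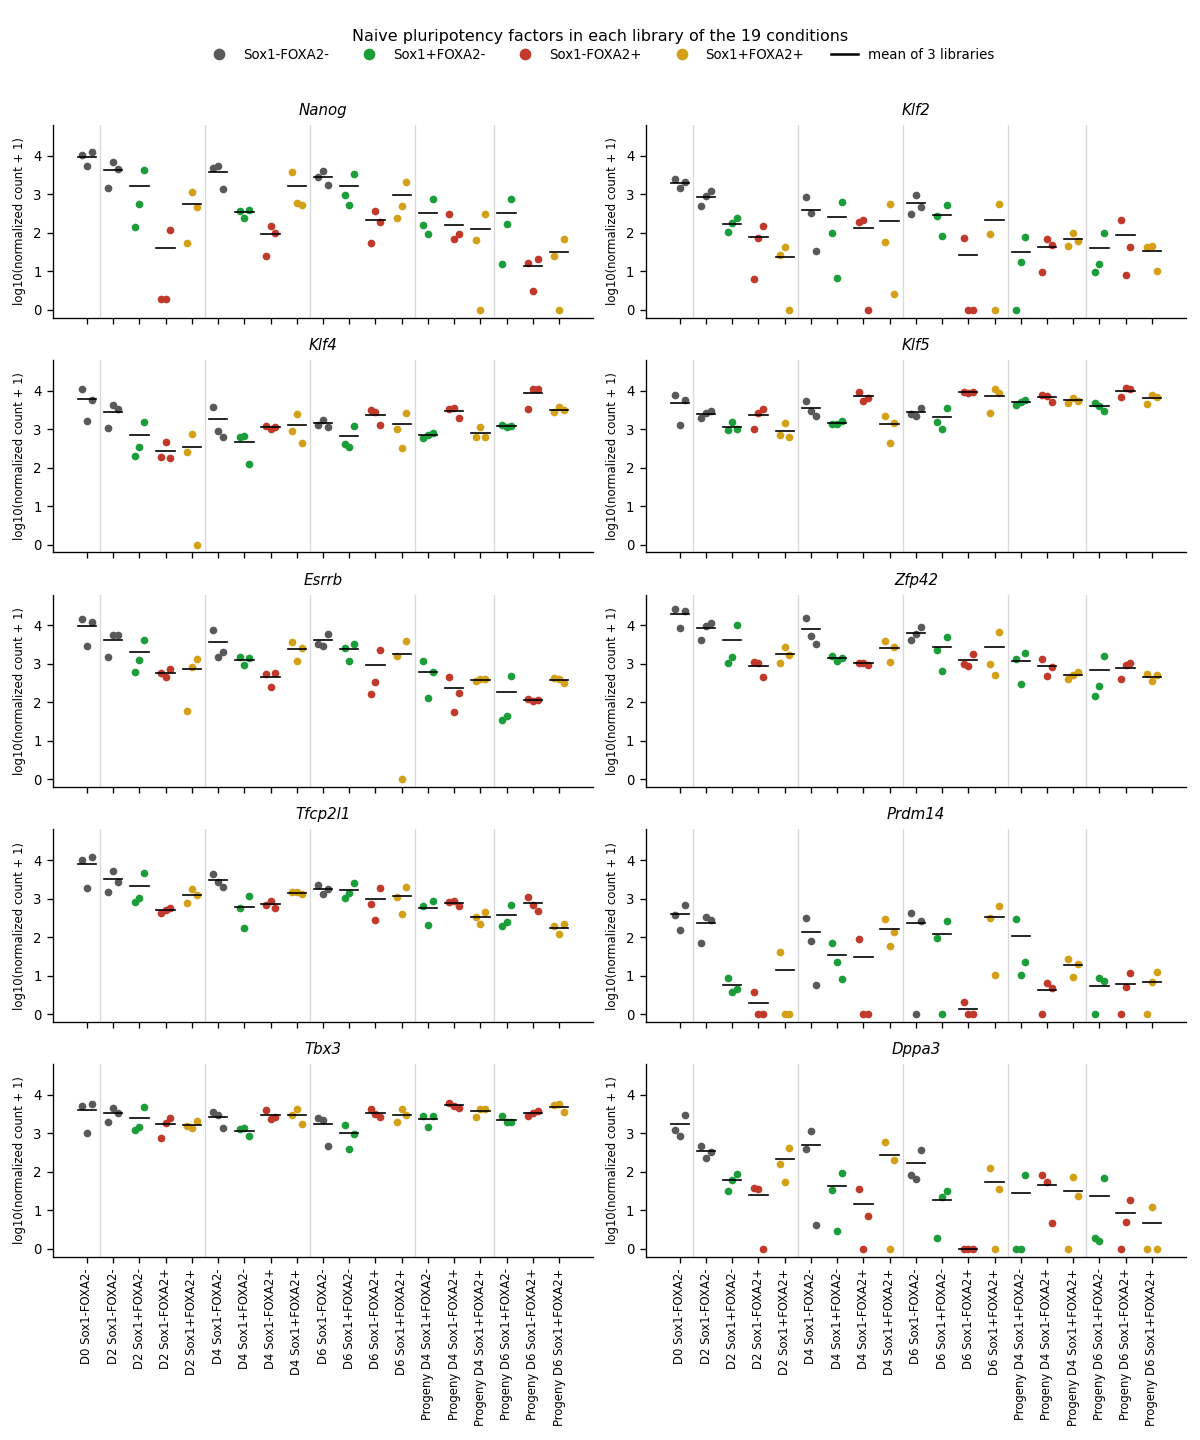
Normalized counts of each member, as log10 of the count plus 1, in every library, 1 panel per gene, with points for libraries coloured by gate, a bar for the mean of 3 libraries, and conditions in order of day and gate from D0 to Progeny D6. Zfp42 libraries of sorted Sox1-FOXA2+ cells lie between 458 and 1860 normalized counts against 8468 to 26002 at D0, whereas Klf5 libraries of the same cells at D4 and D6 lie between 5476 and 9543 against 1287 to 7849 at D0.

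The Kruppel-like factors Klf2, Klf4 and Klf5, which share DNA binding sites in pluripotent cells, parted from each other. Klf2 was present at D0 with 2456, 1432 and 2067 normalized counts and was low in all 3 Sox1+ or FOXA2+ gates, for instance 25.4, 41.7 and 0 in D2 Sox1+FOXA2+ cells and 75.3, 0 and 0 in D6 Sox1-FOXA2+ cells. These libraries do not overlap D0. Klf2 passed the test in none of the sorted comparisons with D0: its lowest adjusted p by edgeR was 0.087, in D6 Sox1-FOXA2+ cells, and 4 of the 12 unadjusted p were under 0.05.

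Klf4, a target of STAT3, held 10972, 1622 and 5767 normalized counts at D0, so that the D0 libraries alone spanned 6.77-fold. In D2 Sox1-FOXA2+ cells it had 186, 457 and 175, below every D0 library, and the log2 fold change was -4.44 (SE 1.10, edgeR adjusted p = 0.024). In the same gate it had 1221, 1027 and 1138 at D4 and 3210, 2734 and 1251 at D6, which overlaps D0 and is 39.2% of its mean. The change from D2 to D6 in Sox1-FOXA2+ cells exceeded that in Sox1+FOXA2- cells by a log2 difference of 3.45 (SE 1.39, edgeR adjusted p = 0.525), which does not pass the test over all genes. None of the 10 members passed that test of the difference between both gates (2 at an unadjusted p under 0.05, 0 by DESeq2), and 0.0956% of all genes did. Klf4 was also called in D2 Sox1+FOXA2+ cells (263, 744 and 0 normalized counts, log2 fold change -4.13, SE 1.08, adjusted p = 0.037). Both D2 calls were lost without the first D0 library (adjusted p = 0.12 and 0.16) and without replicate 1 or 3 of their own group (0.079 to 0.13), and the second also without the third D0 library (0.058).

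Klf5, which also acts in trophectoderm and epithelia, had lower means at D2 than at D6 in every gate, and the change was called in 1 of them. Without the second D0 library its mean went from 37.3% to 41.2% of D0 in Sox1-FOXA2- cells. In Sox1+FOXA2- cells it went from 17.4% to 30.3%. Its D0 libraries held 7849, 1287 and 5593 normalized counts. In D2 Sox1+FOXA2+ cells it had 726, 1423 and 614, and in D6 Sox1+FOXA2+ cells 2684, 10768 and 8745. The D2 libraries lie below all D6 libraries, and edgeR's quasi-likelihood test called the change from D2 to D6 with a log2 fold change of 2.70 (SE 0.59, adjusted p = 0.021). It was the only call among 40 combinations of member and gate for D6 against D2, where 0.216% of all genes were called. The call was lost without replicate 1 or 3 of D2 Sox1+FOXA2+ cells (adjusted p = 0.065 and 0.093). For D6 against D2 in that gate the median log2 fold change of all genes was 0.43, and 0.80 when scaled by DESeq2's size factors. In Sox1-FOXA2+ cells Klf5 had 1014, 2716 and 3377 at D2, 9543, 5476 and 6526 at D4 and 9495, 8708 and 9223 at D6. The D6 libraries lie above all D0 libraries, as did 9.68% of all genes, with 186% of the D0 mean (136% without the second D0 library), but the log2 fold change of 0.81 (SE 0.56, adjusted p = 0.41) was not called. Klf5 was called lower than D0 in D2 Sox1+FOXA2+ cells (-2.39, SE 0.58, adjusted p = 0.020) and D4 Sox1+FOXA2+ cells (-2.13, SE 0.57, adjusted p = 0.018), calls that were lost without the first D0 library (0.16 and 0.18), without the third (0.055 and 0.054) and without 2 libraries of their own group each (0.084 to 0.12).

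Prdm14 and Dppa3 are linked to DNA methylation and to the germ line: Prdm14 is a PR domain protein that represses DNA methyltransferase genes, and Dppa3 (Stella) protects methylation in the early embryo. Prdm14 was the least abundant member, with 373, 149 and 678 normalized counts at D0. In D2 Sox1-FOXA2+ cells its raw counts were 3, 0 and 0 and in D6 Sox1-FOXA2+ cells 1, 0 and 0, while D6 Sox1+FOXA2+ libraries held 320, 9.10 and 653 normalized counts. Prdm14 passed the test in none of the sorted comparisons with D0, with a lowest adjusted p by edgeR of 0.071 in D6 Sox1-FOXA2+ cells and 3 of 12 unadjusted p under 0.05. Dppa3 held 1252, 860 and 3074 normalized counts at D0 and 473, 225 and 336 in D2 Sox1-FOXA2- cells. All 3 libraries of D6 Sox1-FOXA2+ cells were at 0 counts (edgeR adjusted p = 0.0033). At a floor of 3 counts per library this is at least 488-fold lower than the D0 mean. That bound takes each count as a separate fragment and would be weaker if both reads of a pair were counted.

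Tbx3, a T-box factor with roles in the naive state and in endoderm, was called once among the sorted cells. Its D0 libraries held 5051, 1043 and 5825 normalized counts, and the means of the 12 later sorted conditions lay between 25.2% and 85.1% of the D0 mean. The call was in D6 Sox1+FOXA2- cells (1637, 398 and 967 normalized counts), with a log2 fold change of -2.25 (SE 0.62, edgeR adjusted p = 0.033). That call was lost without the first (adjusted p = 0.13) or the third D0 library (0.14) and without replicate 2 (0.19) or 3 (0.14) of the group.

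**Figure D4:**
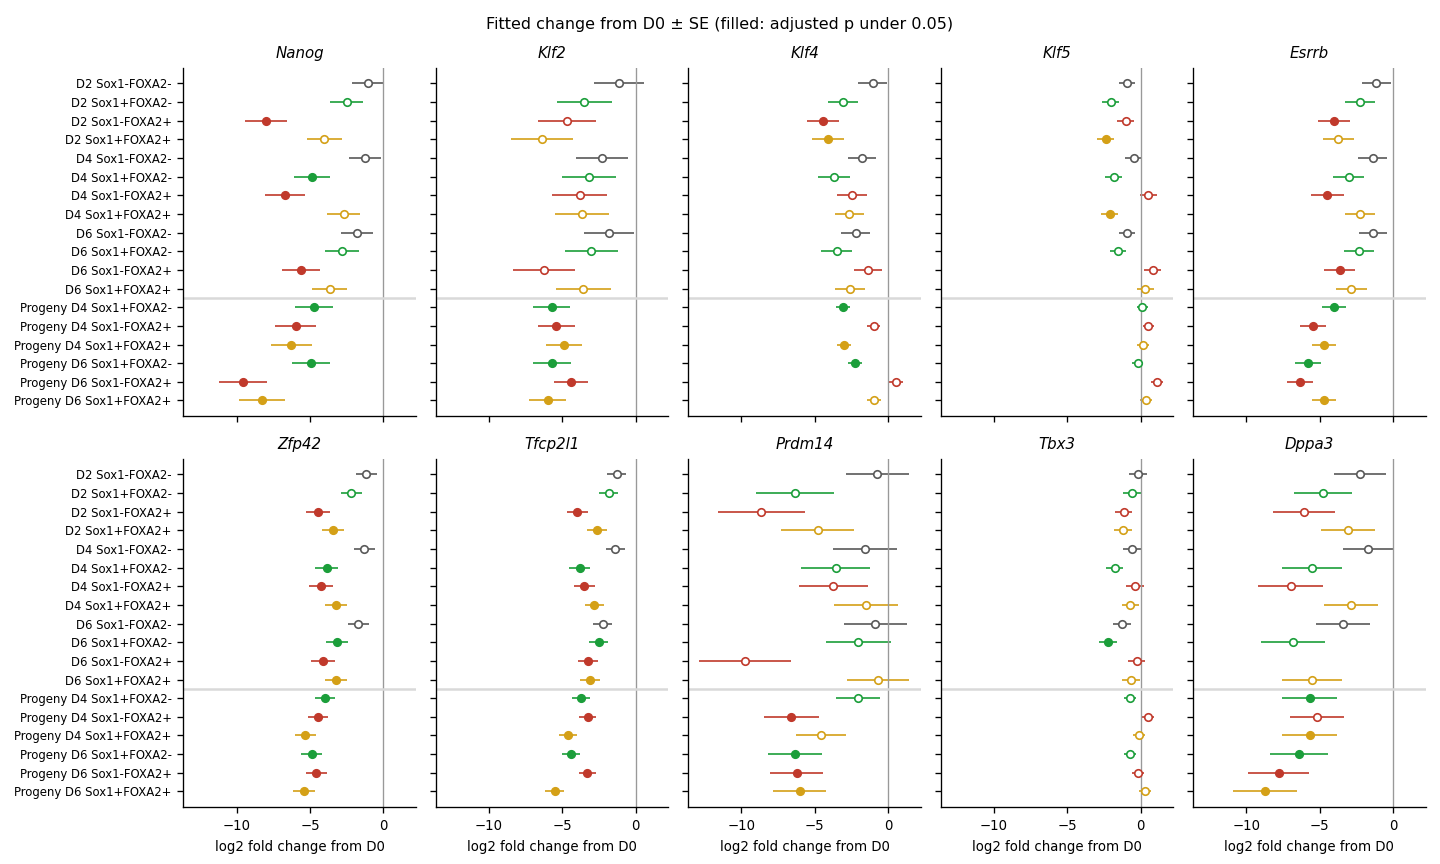
Fitted log2 fold change against D0 of each member in the 12 sorted and 6 progeny conditions, with bars for 1 SE and filled symbols for an adjusted p under 0.05 (edgeR). Called members of sorted cells lie between -7.99 and -2.13. With every D0 library in the fit, Klf5 and Tbx3 lie closer to 0 in progeny than most other members. Dppa3 in D6 Sox1-FOXA2+ cells, with 0 counts in all libraries, is left out.

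The members were also compared among the 4 gates of a day. edgeR's quasi-likelihood test called 0 of 10 members at D2 (8 at an unadjusted p under 0.05, 4 called by DESeq2, and 0.0245% of all genes called), 3 of 10 at D4 (0.479% of all genes) and 1 of 10 at D6 (0.959%). With the replicate number as a block, 5 were called at D4, with Esrrb (adjusted p = 0.0073) and Tfcp2l1 (0.049) added, and 3 at D6, Klf5 (0.00085), Nanog (0.0023) and Zfp42 (0.0012). Same-numbered libraries deviated together in 4 of the 6 pairs of gates at D4 and in as many at D6, so that the fit without the block left out a pairing on both days. Without the block the D4 calls were Nanog (adjusted p = 0.012), Zfp42 (0.019) and Klf5 (0.039). Nanog and Zfp42 were highest in Sox1-FOXA2- cells, with 4829, 5571 and 1357 normalized counts of Nanog and 15348, 5204 and 3365 of Zfp42, and lowest in Sox1-FOXA2+ cells. Klf5 was highest in Sox1-FOXA2+ cells, whose 3 libraries lie above all others of D4. The Zfp42 call was lost without replicate 1 of D4 Sox1-FOXA2- cells (adjusted p = 0.31) and the Klf5 call without replicate 1 (0.21) or 3 (0.052) of D4 Sox1-FOXA2+ cells or replicate 3 of D4 Sox1+FOXA2+ cells (0.059). Without replicate 3 of D2 Sox1+FOXA2- cells 1 member was called at D2.

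Set directly against Sox1+FOXA2- cells, the Sox1-FOXA2+ cells differed by edgeR's test in 0 members at D2 and at D4 (5 and 4 at an unadjusted p under 0.05, 0 and 1 called by DESeq2, 0% and 0.227% of all genes by edgeR) and in 1 at D6 (1.09% of all genes). This was Klf5, with a log2 difference of 2.37 in favour of Sox1-FOXA2+ (SE 0.53, edgeR adjusted p = 0.023), with 9495, 8708 and 9223 normalized counts against 1522, 999.8 and 3590. The 2 groups do not overlap, and the call was lost without replicate 1 or 2 of the Sox1+FOXA2- cells (adjusted p = 0.10 and 0.15). With the replicate block Klf5 was called in this comparison at D4 (log2 difference 2.30, edgeR adjusted p = 0.0075), and at D6 Klf5 (2.50, adjusted p = 0.00048), Tbx3 (1.92, adjusted p = 0.047) and Nanog (-2.77, adjusted p = 0.038). Without the block Klf5 was the 1 member called among the 4 gates of D6 (adjusted p = 0.049), and with 1 of 4 libraries left out (replicates 1 and 2 of both groups) that p was between 0.057 and 0.13. Endoderm markers moved with the Klf5 level. Of 8 markers, 7 were called higher than D0 in D6 Sox1-FOXA2+ cells (625 of 28237 genes were) and 2 in D6 Sox1+FOXA2- cells (427 of 28237). Their summed level was 359200 to 710988 normalized counts in the first and 3975 to 5062 in the second, with Afp at 0 in the first. The list holds Foxa2, on which the cells were gated. Their part in the Klf5 result was not tested.

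**Figure D5:**
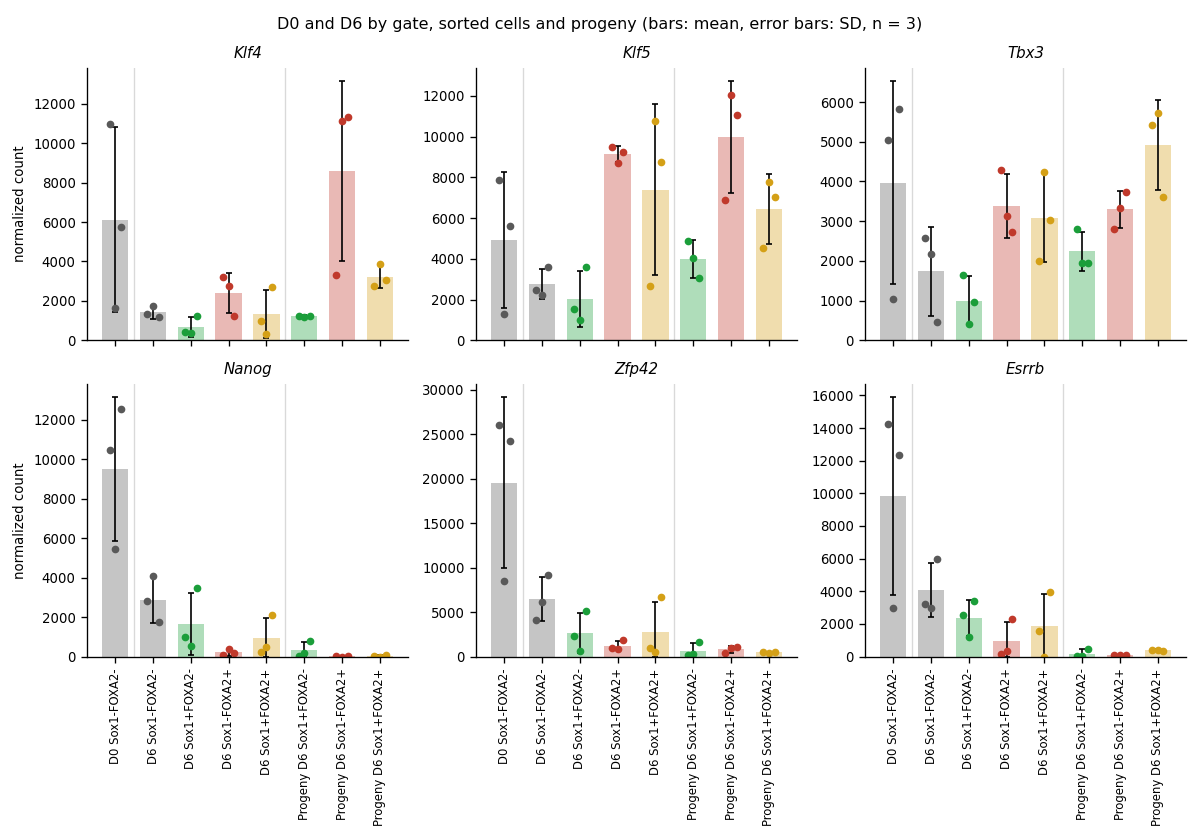
Normalized counts (linear axis from 0) of Klf4, Klf5, Tbx3, Nanog, Zfp42 and Esrrb, 1 panel per gene, at D0, in the 4 sorted gates of D6 and in Progeny D6, with bars for the mean, error bars for the SD cut at 0, and points for the 3 libraries. Klf5 stands at 8708 to 9495 in sorted Sox1-FOXA2+ cells and at 999.8 to 3590 in Sox1+FOXA2- cells, while Nanog stands at 55.0 to 380 in the same Sox1-FOXA2+ cells against 5448 to 12562 at D0.

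In progeny most members were low and a few were closer to the D0 level. In the fit of D0 and progeny (21 libraries, 24419 genes), edgeR's quasi-likelihood test called 20 of 30 combinations of member and gate of origin lower at D4 and 22 of 30 at D6, and none higher, where 5.03% and 6.87% of all genes were called lower. Without the second D0 library it called 23 and 24 (Dppa3 in Progeny D4 of Sox1-FOXA2+ cells among those gained), without the third 17 and 18. Nanog, Klf2, Esrrb, Zfp42 and Tfcp2l1 were called in 6 of 6 progeny populations, Dppa3 in 5, Prdm14 in 4, Klf4 in 3, and Klf5 and Tbx3 in 0. The median member was at 6.80%, 3.58% and 4.09% of its D0 mean in Progeny D4 of Sox1+FOXA2-, then Sox1-FOXA2+, then Sox1+FOXA2+ cells, and at 3.41%, 4.27% and 2.29% in Progeny D6. Leaving out the second D0 library, these medians were 4.98%, 2.81% and 3.05% at D4 and 2.73%, 3.55% and 1.72% at D6. The medians of all genes, with every D0 library, were 91.3%, 92.6% and 104.8% at D4 and 92.8%, 92.0% and 101.8% at D6.

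The called members were low in progeny of all 3 gates. Nanog had 15.5, 2.05 and 20.6 normalized counts in Progeny D6 of Sox1-FOXA2+ cells, 24.1, 0 and 67.0 in that of Sox1+FOXA2+ cells, and 14.9, 171 and 775 in that of Sox1+FOXA2- cells, all below D0. Zfp42 in Progeny D6 of Sox1+FOXA2+ cells had 536, 370 and 505, Esrrb in that of Sox1-FOXA2+ cells 122, 108 and 115, and Tfcp2l1 in that of Sox1+FOXA2+ cells 190, 118 and 217. Over the 6 populations, log2 fold changes by edgeR ran from -9.53 to -4.69 for Nanog, -6.35 to -4.02 for Esrrb, -6.01 to -4.41 for Klf2, -5.53 to -3.28 for Tfcp2l1 and -5.41 to -4.00 for Zfp42. The calls of Esrrb, Klf2, Zfp42 and Tfcp2l1 were kept whichever library was left out, although those of Klf2 did not pass when all 57 libraries shared a single estimate of the spread (adjusted p from 0.054 to 0.16). Nanog in Progeny D4 of Sox1+FOXA2- cells was lost without replicate 1 or 2 (adjusted p = 0.073 and 0.058). The 4 calls of Prdm14, the 2 of Dppa3 in Progeny D4 and that of Dppa3 in Progeny D6 of Sox1+FOXA2- cells were lost without the third D0 library (adjusted p from 0.052 to 0.12) or without libraries of their own group.

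With every D0 library, Klf5 and Tbx3 were not called in any of the 6 progenies. Without the second D0 library this held for Klf5 alone. The Klf5 means were between 81.3% and 204% of the D0 mean (59.4% to 149% without the second D0 library), and the log2 fold changes between -0.22 and 1.08 were not called. Tbx3 means were between 56.3% and 134% (41.1% to 97.9% without that library), and its log2 fold changes were between -0.75 and 0.49. Without the second D0 library, however, Tbx3 was called lower in Progeny D4 and D6 of Sox1+FOXA2- cells (-1.16 and -1.18 on the log2 scale). Klf4 lay between. In Progeny D4 it had 590, 692 and 800 normalized counts from Sox1+FOXA2- cells and 633, 1129 and 618 from Sox1+FOXA2+ cells, called with log2 fold changes of -3.09 (SE 0.50, edgeR adjusted p = 9.2e-05) and -3.02 (SE 0.50, adjusted p = 9.8e-05). From Sox1-FOXA2+ cells it had 3291, 3577 and 1948, within the D0 range, and 3298, 11150 and 11329 in Progeny D6, with a log2 fold change of 0.52 (SE 0.46, adjusted p = 0.44) against D0. In Progeny D6 of Sox1+FOXA2- cells it had 1255, 1165 and 1220, below every D0 library (-2.28, SE 0.48, adjusted p = 0.0013). Without the second D0 library Klf4 was also called in Progeny D4 of Sox1-FOXA2+ cells (-1.45, adjusted p = 0.016) and Progeny D6 of Sox1+FOXA2+ cells (-1.41, adjusted p = 0.014).

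Klf4 differed by gate of origin on both days, and Klf5 and Tbx3 at D6. edgeR's quasi-likelihood test among the 3 progenies called 1 of 10 members at D4 (1.56% of all genes) and 3 of 9 tested at D6 (6.11%). Klf4 was called on both days (adjusted p = 0.0022 and 0.0010), Klf5 (0.035) and Tbx3 (0.038) at D6. In Progeny D6 the Tbx3 mean was highest from Sox1+FOXA2+ cells, at 90.4% of the D0 mean without the second D0 library. From Sox1-FOXA2+ cells it was 60.6% and from Sox1+FOXA2- cells 41.1%. In Progeny D4, where the same-numbered libraries deviated together in 3 of 3 pairs of groups, the fit with the replicate block also called Tbx3 (adjusted p = 0.015). Progeny of Sox1-FOXA2+ cells held more Klf4 than those of Sox1+FOXA2- cells, with a log2 difference of 2.10 at D4 (SE 0.36, adjusted p = 0.0039) and 2.77 at D6 (SE 0.37, adjusted p = 0.00043), where 1.86% and 6.78% of all genes were called. Libraries of these groups do not overlap on either day, and no single library left out ended the call. With the replicate block Tbx3 was also called in this comparison at D4 (log2 difference 1.25, SE 0.26, edgeR adjusted p = 0.0052). The Klf4 call did not pass when all 57 libraries shared a single estimate of the spread (adjusted p = 1.0 at D4 and 0.17 at D6). Klf5 was higher by 1.27 at D6 (SE 0.28, adjusted p = 0.013), with 6873, 12046 and 11081 normalized counts against 4881, 4036 and 3062. That call was lost without replicate 2 of the first or replicate 3 of the second group (adjusted p = 0.060 and 0.055), and the calls of Klf5 and Tbx3 among the 3 progenies were each lost without 5 and 6 of the 9 libraries (adjusted p from 0.052 to 0.15 for Klf5 and from 0.054 to 0.15 for Tbx3). Endoderm markers moved with the Klf4 and Klf5 differences. Their sum in Progeny D6 was 353022 to 741471 normalized counts from Sox1-FOXA2+ cells and 11996 to 28521 from Sox1+FOXA2- cells. In each, 7 of 8 were called higher than D0, as were 12.9% and 11.3% of all genes. Smooth muscle and mesenchyme markers moved the other way, with a sum of 2944 to 12166 against 57205 to 80944. The part of either list in the differences was not tested.

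The progeny were compared with sorted cells of the same gate and day, which differ from them in replating and in basal medium. At D4, 2 of 30 combinations were called (0.618% of all genes), both Klf5 and both higher in progeny: by 1.90 on the log2 scale from Sox1+FOXA2- cells (SE 0.43, edgeR adjusted p = 0.039) and by 2.14 from Sox1+FOXA2+ cells (SE 0.43, adjusted p = 0.012). Progeny D4 of Sox1+FOXA2- cells held 4252, 5198 and 5786 normalized counts of Klf5 against 1357, 1329 and 1621 in sorted cells, and that of Sox1+FOXA2+ cells 4921, 6571 and 5376 against 2262, 427 and 1437. Neither pair of groups overlaps. Leaving out any of 5 of these libraries ended the first call, with an adjusted p between 0.057 and 0.13. With the replicate block 4 were called at D4, with Esrrb (-2.19, adjusted p = 0.049) and Zfp42 (-2.02, adjusted p = 0.046) lower in progeny of Sox1+FOXA2+ cells. At D6, edgeR called 0 of 30 (1.88% of all genes), with 13 at an unadjusted p under 0.05 and 6 called by DESeq2. Smooth muscle and mesenchyme markers moved with the progeny. Against D0, 4 of 4 were called higher in 5 of the 6 progenies and 3 of 4 in the other. Of 24419 genes, 2264 to 3160 were called higher in these progenies. The sum of the markers was 2944 to 89859 normalized counts in progeny against 38.9 to 5234 in sorted cells. Their part in the levels of Klf4, Klf5 and Tbx3 was not tested.

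Across the means of the 19 conditions 7 members varied together and 3 apart from them, given here as a description over condition means with no test. With the mean z-score of all 10 members (levels on a log2 scale, the gene itself included), Zfp42 had a Pearson correlation of 0.898, Tfcp2l1 0.846, Klf2 0.821, Nanog 0.796, Prdm14 0.788, Dppa3 0.768 and Esrrb 0.742, but Klf4 0.475, Tbx3 0.148 and Klf5 -0.034. The 21 pairs among the first 7 genes had correlations from 0.614 to 0.941, the 3 pairs among Klf4, Klf5 and Tbx3 from 0.626 to 0.699, and the 21 pairs between both sets from -0.511 to 0.269. Both sets were formed with these condition means known, so that the ranges of these pairs describe the split and do not test it. Within conditions, over the deviations of the 57 libraries from their condition means, the medians of these pairs were 0.311, 0.301 and 0.207, so that the gap between the sets in condition means was much smaller among replicates. Outside the list, the genes most like that mean over the 19 conditions, among 29597 genes, were Ttc39b (0.914), Sirt1, a deacetylase (0.907), Tet2, a DNA demethylase (0.907), Cars (0.902) and Platr10 (0.899).

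Other genes of the naive state, a list of 14 compiled beside the members, were lower in the same populations. None was called in Sox1-FOXA2- cells, where 0.0354% to 0.347% of all genes were. Their median summed level there was still lower, at 45130, 25819 and 26912 normalized counts at D2, D4 and D6 against 89722 at D0. Without the second D0 library, 5, 2 and 2 of 14 were called lower in Sox1+FOXA2+ cells and 1, 3 and 3 in Sox1+FOXA2- cells. Sox1-FOXA2+ cells then had 5, 4 and 5. With every D0 library, 5, 6 and 5 of 14 were called lower in the Sox1-FOXA2+ gate at D2, D4 and D6 (all genes 0.414%, 0.924% and 1.89%) and 0 higher. The median member of the list had a log2 fold change of -3.71 there at D6. The D6 list includes Tdgf1, a Nodal co-receptor, at -9.28 (SE 2.03, edgeR adjusted p = 0.0035), Jam2, a junction molecule, at -4.78 (SE 1.13, adjusted p = 0.0075), Dppa4 at -3.35 (SE 0.63, adjusted p = 0.00055) and Tet2 at -2.65 (SE 0.48, adjusted p = 0.00037). In Progeny D6, 12, 13 and 13 of 14 were called lower from Sox1+FOXA2-, then Sox1-FOXA2+, then Sox1+FOXA2+ cells, where 1365, 1683 and 1984 of 24419 genes were. Markers of the two-cell-like state, the Zscan4 genes of a rare ESC state, moved with the Sox1-FOXA2+ cells: 6 of 6 were called lower than D0 there at D6 and in their Progeny D6, with a summed level of 2.18 to 50.9 and 6.90 to 188 normalized counts against 310 to 14562 at D0, and 4 of 6 at 0 in all D6 Sox1-FOXA2+ libraries. Zscan4 genes are near copies of each other, so that reads may be shared among them. Their part in the levels of the members was not tested.

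The LIF receptor genes were higher in Sox1-FOXA2+ cells late in the course. Of 9 genes of LIF and STAT3 signalling, the pathway that holds Klf4 and Tfcp2l1 in ESCs, none passed the test at D2, and in D6 Sox1-FOXA2+ cells 2 were called higher (2.21% of all genes were) and 1 lower. These were the LIF receptor Lifr (3.56 on the log2 scale, SE 0.66, edgeR adjusted p = 0.00042), its partner Il6st (2.19, SE 0.48, adjusted p = 0.0035) and the kinase gene Pim1 (-3.46, SE 0.73, adjusted p = 0.0022). In Progeny D6, 4, 5 and 5 of 9 were called higher from Sox1+FOXA2-, then Sox1-FOXA2+, then Sox1+FOXA2+ cells, where 11.3%, 12.9% and 12.9% of all genes were called higher. Lifr was called in each of them (2.20, 4.06 and 2.81). The core pluripotency factor Pou5f1 (OCT4) was called lower in D6 Sox1-FOXA2+ cells (-4.57, SE 1.27, adjusted p = 0.028), the sole call among the 4 core genes tested there. At D2 Pou5f1 was called lower in both FOXA2+ gates (-5.10 for Sox1-FOXA2+, -5.32 for Sox1+FOXA2+). Sall4, another core gene, was called lower at D6 in every gate but Sox1-FOXA2+, where it was at -0.59 (adjusted p = 0.47). Its log2 fold changes were -2.12 for double-negative, -1.99 for Sox1+FOXA2- and -1.47 for double-positive cells (edgeR adjusted p = 0.010, 0.011 and 0.045). Without the second D0 library, 0 of 4 core genes were called in D6 double-positive cells. In Progeny D6 4, 3 and 4 of the 4 were called lower. The fifth core gene, Sox2, was listed at 0 in all 57 libraries and could not be tested. Of the paralogs of the Kruppel-like members, Klf3, Klf6, Klf7, Klf9, Klf10 and Klf13, 1 was called in D6 Sox1-FOXA2+ cells. This was Klf6, which was higher by 1.96 (SE 0.48, adjusted p = 0.010).

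Lists for other stages and lineages gave the setting of these changes. With every D0 library, 0.0354% to 3.47% of all genes were called lower in the sorted populations, and 960 to 1984 of 24419 in the progenies. Called higher were 99 to 795 of 28237 genes in the sorted populations and 2264 to 3160 of 24419 in the progenies. Of 8 formative and primed genes, 1 to 3 were called lower than D0 in each sorted population and 5 to 8 in each progeny, and none higher. These genes were high in the second D0 library, and without it 0 were called lower in 11 of the 12 sorted populations, 1 in the other and 1 to 6 in each progeny. Of 6 neuroectoderm markers, 1 or 2 were called higher in each sorted population and 3 in each progeny. Of 4 trophectoderm markers, which include the lineage where Klf5 acts, none was called in sorted cells by edgeR, with Elf5 at an unadjusted p under 0.05 in 9 of 12 populations, and 1 or 2 were called higher in progeny. Primordial germ cell markers, the lineage of Prdm14 and Dppa3, had at most 1 of 5 called higher in any population and at most 2 lower. Of 6 immediate early genes, which respond to handling of cells, at most 1 was called higher and at most 1 lower in any population.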

How the data were processed

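RNA of about 500 cells per library was made into SMART-Seq Stranded libraries and sequenced on a NovaSeq. The submitters' processing notes and the study's methods name STAR, SAMtools and featureCounts with GENCODE M21 annotation (GRCm38). Their versions and the strand and pair settings are not given in the sources used here. The authors deposited raw counts per gene, and 92 lines without a gene name, which hold 0 counts, were not used. Of 220580 counts from 1 to 20, 84.6% were even, and whether both reads of a pair were counted was not tested. Reads of Nanog, Zfp42 and Dppa3 may be shared with their pseudogenes, 1.38% of the exon bases of Tfcp2l1 are shared with Gm23497 and 1.74% of those of Tbx3 lie opposite Tbx3os1.

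Normalized counts are the deposited counts divided by DESeq2 (1.42.0) size factors over the 57 libraries. Differences were tested with edgeR's quasi-likelihood test (4.0.16 in R 4.3.3, limma 3.58.1): trimmed mean of M-values scaling, filterByExpr (minimum count 10, minimum total 15), prior count 0.125, two-sided, Benjamini-Hochberg adjusted over all genes tested, threshold 0.05. Replicates are the 3 libraries of a group as the labels number them. Whether these numbers pair libraries was checked on same-numbered deviations from the group means over 5000 genes. All 3 correlations exceeded 0.1 in 0 of 12 pairs of D0 with sorted groups, 0 of 6 of D0 with progeny and 0 of 6 of progeny with sorted groups, but in 9 of 18 pairs of sorted gates of one day and in 4 of 6 pairs of progeny gates (3 of 3 at D4). The labels do not say what a number marks. Sorted cells were compared with D0 over the 39 sorted libraries, progeny with D0 over 21 libraries, and gates and progeny against sorted cells over the libraries of that day. The test was also run on simulated counts, drawn independently for each library with no pairing and no outlying D0 library. That run cannot show how the test behaves on these features of the data. Depth was 20391512 to 61358355 counts in sorted cells and 10170632 to 81845651 in progeny, and floors of 3 counts cover counting error only. Alternatives were DESeq2's size factors (RLE scaling), no filter, DESeq2's own test, a fit of all 57 libraries, the replicate number as a block and leaving out each library in turn. Leaving out the second D0 library from the D0 mean, and from the tests of the lists, was chosen after seeing the data. The members and the lists were chosen with earlier results of these data known. The 10 members are named throughout, and of each list at most 4 called genes, the 2 with the highest and the 2 with the lowest log2 fold change. Fgf5 was named after its values were seen. Lists cover other naive-state genes, LIF and STAT3, core and formative pluripotency, KLF paralogs, and markers of endoderm, neuroectoderm, trophectoderm, primordial germ cells, the two-cell-like state, smooth muscle and mesenchyme, and immediate early genes. Figures were drawn with matplotlib 3.10.9 in Python 3.11.15 (pandas 2.3.3, numpy 2.4.6).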

Additional observations from a re-analysis of the deposited data

How the results depend on the processing

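Of 86 called results of single members, 0 changed direction under the alternatives. A fit of all 57 libraries ended 24 of these calls and RLE scaling 5, while DESeq2, no filter and the replicate block ended 0, and leaving out single libraries ended 104 of 552. The 14 sorted calls against D0 that no left-out library ended include Nanog, Zfp42 and Tfcp2l1 in Sox1-FOXA2+ cells on all 3 days. RLE scaling moved the median log2 fold change of all genes by over 0.1 in 10 of 34 contrasts, at most from 0.62 to 1.02 (D6 Sox1+FOXA2+ against D0), and 4 of 339 member values, none of them called, turned sign under it. At 0 counts in all libraries of a group, as for Dppa3 in D6 Sox1-FOXA2+ cells, depth allowed only a bound. The cause of the differences between settings was not tested.

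The counts of called members against D0 at D2, D4 and D6 were 9, 10 and 10 of 40 in sorted cells, 20, 19 and 25 with no filter, and 21, 16 and 17 with DESeq2. Leaving out single libraries gave 4 to 11, 8 to 12 and 7 to 13. The count for Progeny D6 was 14 of 30 in the fit of all 57 libraries against 22, and leaving out libraries gave 18 to 24, and 17 to 23 for Progeny D4. For D6 against D2 it was 5 with no filter and 4 with DESeq2 against 1, and 0 to 2 without single libraries. The difference between gates in that change had 1 call with no filter and 0 to 0 without single libraries.

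Among the 4 gates no filter gave 7, 5 and 4 called members at D2, D4 and D6, DESeq2 4, 5 and 2, RLE scaling 0 at D6, and left-out libraries 0 to 1, 2 to 4 and 0 to 3. For Sox1-FOXA2+ against Sox1+FOXA2- cells no filter gave 4, 1 and 3, DESeq2 1 at D4 and 3 at D6, the fit of all 57 libraries 1 and 2, and left-out libraries 0 to 0 at D2 and D4 and 0 to 1 at D6. For the same pair in progeny at D4, RLE scaling and no filter gave 2, DESeq2 3 and all 57 libraries 0, with 1 to 2 without single libraries, and at D6 all 57 libraries gave 0, with 1 to 2. Among the 3 progenies no filter and DESeq2 gave 2 at D4 and 5 at D6, all 57 libraries 0 on both days, and left-out libraries 1 to 1 and 1 to 3. Progeny against sorted cells gave 5 at D4 and 10 at D6 with no filter, 6 and 6 with DESeq2, 1 and 1 with all 57 libraries, and 1 to 4 and 0 to 2 without single libraries.

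With the replicate block the counts were 5 at D4 and 3 at D6 among the 4 gates, 1 at D4 and 3 at D6 for Sox1-FOXA2+ against Sox1+FOXA2- cells, 4 for Progeny D4 against sorted cells, and 2 among the 3 progenies and 2 for the pair in progeny at D4. In the comparisons with D0 the block gave 11, 11 and 14 in sorted cells and 20 and 22 in progeny.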
